A study of Homo sapiens with 10 samples.

Results

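Gefitinib is a small molecule that occupies the ATP site of the epidermal growth factor receptor (EGFR) kinase, and it also inhibits GAK, the cyclin G-associated kinase that the study is about. PC-3 is an established line of androgen-independent human prostate cancer cells from a bone metastasis. The comparison described here is that of the 2 arrays labelled gefitinib (60 µM, 24 h) with the 2 arrays labelled DMSO (24 h), DMSO being the solvent of the drug. They are 4 of the 10 arrays of the series, each 1 hybridization of cRNA from PC-3 cells to an Agilent Whole Human Genome array in a single color (Cy3). The other 6 arrays are 2 of untreated cells at 0 h, 2 labelled luteolin (60 µM, 24 h) and 2 labelled luteolin plus gefitinib (60 µM each, 24 h). All groups are the same cell line in the same medium. The labels call the 2 arrays of a group biological replicates while the design text says that samples were run in duplicate. Nothing says whether they came from separate cultures, so that the p-values measure the spread between these arrays, which may be technical.

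The names of the scanner files do not carry the treatment of the labels. The files of both arrays labelled gefitinib have "L+G" in the place of gefitinib, those labelled luteolin have "Gef", and those labelled luteolin plus gefitinib have "Lu+". Groups were taken from the labels throughout, and "with gefitinib" below means on the arrays so labelled. In the same way, "luteolin" and "both drugs" stand for the arrays labelled luteolin and luteolin plus gefitinib, whatever they received. Under the file names, the gefitinib arrays would be those labelled luteolin, and the values that turn direction under that reading are given beside the results or with the other processing choices. The comparison so made called 1423 genes raised and 1216 lowered, against 3082 and 2814 under the labels. LEFTY1, an inhibitor of Nodal, was at -5.98 and -6.46 at 0 h, at -4.46 and -3.17 on the arrays labelled luteolin, at -2.08 and -3.75 on those labelled gefitinib and at -0.09 and 0.26 on those labelled luteolin plus gefitinib. The text of the study ranks the treatments by this gene in the order that the file names give to these arrays, not in that of the labels. The arrays labelled gefitinib may therefore be those of both drugs, and every value below is that of a label.

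EGFR signals mainly through the RAS and ERK cascade and through PI3K and AKT. ERK activity sustains transcription of its own inhibitors, among them the phosphatase DUSP6 and the Sprouty and SPRED adaptors, and drives cells from G1 into S phase. AKT keeps the FOXO transcription factors out of the nucleus, so that FOXO target genes are known to rise when the pathway is blocked.

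A probe was kept where some group had it well above background on both of its arrays. This left 28776 of 41000 probes, for 19718 genes, each read from its brightest probe. A level is the log2 ratio of a processed signal to its own array's 75th percentile, so that 0 is the brightness of that percentile. A change is the mean log2 level with gefitinib minus that with DMSO, and rises and falls are given on that log2 scale unless named as a fold. The arrays labelled gefitinib were the dimmer ones, with a 75th percentile of 651 and 628 against 1350 and 1283 with DMSO, and 63.4% of probes were well above background on each of them against 66.9% and 67.1%. Scaling thus added 1.04 on the log2 scale, or 2.06-fold, to every difference between gefitinib and DMSO. Without it, 2805 of the 3082 raised genes were still higher. A raised gene had by definition risen at least 2-fold, so that few could fail this count. It therefore does not show how far the rises depend on the scaling. The part of array brightness in the results was not tested. The median log2 change over all genes was 0.22, and changes below are to be read against it. Replicates were close, with a median SD of 0.18 with gefitinib and 0.09 with DMSO.

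With gefitinib, 3082 of the 19718 genes (15.6%) rose and 2814 (14.3%) fell by at least 2-fold at a limma adjusted p (Benjamini-Hochberg) under 0.05, 29.9% in either direction. The counts of each gene list below are to be read against these shares. Counts against the arrays labelled luteolin have other shares, 18.5% of all genes being higher and 18.1% lower with gefitinib. Against the arrays labelled luteolin plus gefitinib these shares were 9.76% and 17.2%. All adjusted p-values below are of this kind, with 2 arrays per group. Past 4-fold, 397 genes rose and 811 fell, and past 16-fold 56 rose and 21 fell. The DMSO arrays differed from the untreated arrays at 0 h by 7 genes in this test (0.0355%), 5 higher (0.0254%) and 2 lower (0.0101%) with DMSO. Against those 0 h arrays themselves, 14.5% of genes were higher and 14.5% lower with gefitinib (29% in all). Both gefitinib arrays lay above both DMSO arrays for 49.2% of all genes and below them for 32.8%, so that a lack of overlap is common here. The share of calls that were rises depended on the scaling: it was 52.3% here, 40.3% after quantile normalization and 66.2% after normexp background correction. On the only slide that holds both groups, the 1 gefitinib array was at least 2-fold above the 1 DMSO array for 3539 genes and at least 2-fold below it for 2941, with no test. With slide as a block, 3167 genes rose and 2810 fell.

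**Figure D1:**
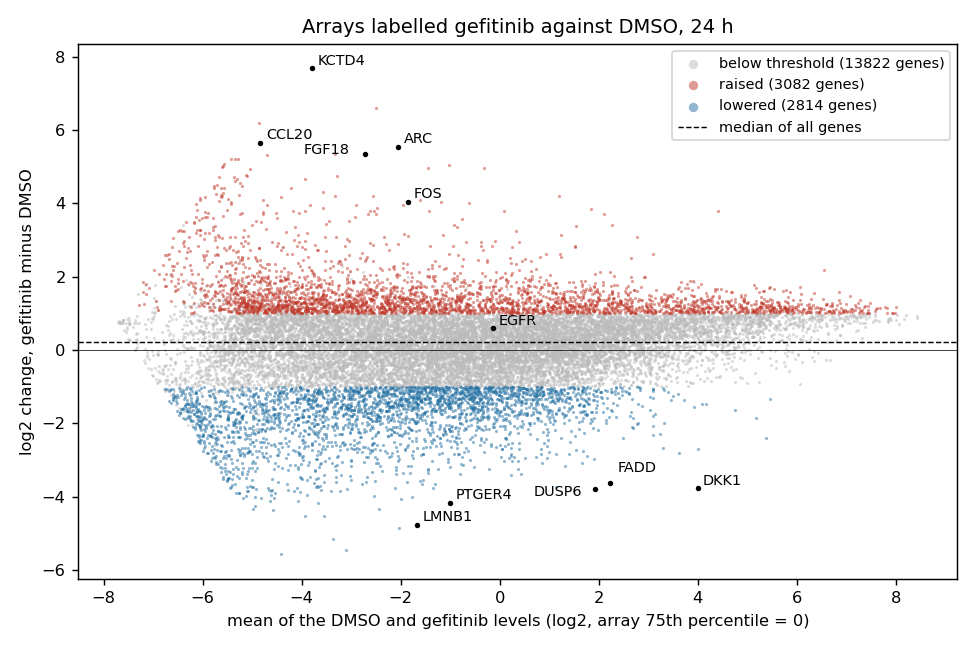
Log2 change with gefitinib against the mean level of each of the 19718 genes (log2, 75th percentile of the array at 0). Red and blue points are the 3082 raised and 2814 lowered genes, the broken line is the median change of 0.22, and named points lie well away from it except EGFR.

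Markers listed for PC-3 cells, among them keratins and adhesion genes, could be read on these arrays. KRT8, KRT18, KRT19, KRT7, EPCAM, CDH1, CDH2, VIM, CD44 and CAV1 were well above background on all 4 arrays. KRT5, a basal keratin, was not well above background on both arrays of any group. The probe of KLK3, the prostate-specific antigen that these cells are not known for, was bright, at 3.38 and 3.67 with DMSO and 4.63 and 5.14 with gefitinib, which goes against the usual description of the line. Of 14 measured genes of this marker list, 6 rose and 0 fell, and of 10 measured markers of other cell types, 4 rose (CD14, ALB, KRT14 and CHGA) and 1 fell (COL1A1, which at -0.62 did not pass after normexp). PTPRC, VWF, CDH5, COL1A2, DCN and HBB were not well above background on both arrays of any group. The summed level of the 10 measured markers was 1.43 and 1.30 times the 75th percentile with DMSO and 2.06 and 2.07 times with gefitinib.

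The largest rises were those of immediate early genes, a growth factor and several genes that were dim with DMSO. ARC, an immediate early gene best known from neurons, had the largest of all among genes well above background in both groups. Its level was -4.64 and -4.99 with DMSO and 1.17 and 0.29 with gefitinib, both gefitinib arrays lying above both DMSO arrays, a log2 change of 5.55 ± 0.34 (SE, adjusted p = 5.75e-05). Its 1 probe lies at chr8:143689581-143689640 (hg18). FGF18, a secreted fibroblast growth factor, stood at -5.08 and -5.73 with DMSO and 0.29 and -0.40 with gefitinib, a log2 change of 5.35 ± 0.56 (SE, adjusted p = 0.000326). For FOS, a subunit of the AP-1 transcription factor, the levels were -3.29 and -4.45 with DMSO and 0.84 and -0.52 with gefitinib and the log2 change was 4.03 ± 0.52 (SE, adjusted p = 0.0008). The small GTPases RRAD and GEM, which bind calcium channels, rose by 3.96 and 3.85 on the log2 scale. TNFAIP3, the ubiquitin-editing enzyme A20 that restrains NF-κB, rose by 3.87 ± 0.32 (SE, adjusted p = 0.000133), and the orphan nuclear receptor NR4A2 by 3.80 ± 0.48 (SE, adjusted p = 0.000729). AHSG and HP, plasma proteins that the liver secretes, were at -4.39 and -4.92 with DMSO and -0.26 and -0.66 with gefitinib and at -5.31 and -5.52 with DMSO and -0.92 and -1.53 with gefitinib, and rose by 4.19 and 4.19. LSMEM1, GCNA and FAM209A, which are little studied or known from germ cells, complete the 12 largest, at a change of 5.03, 4.21 and 4.05. Genes whose gefitinib and DMSO arrays overlapped had been left out of this ranking beforehand.

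Other genes were not well above background on either DMSO array, so that their rise has only a lower limit. KCTD4, a member of a family of tetramerization-domain proteins, was at least 57.9-fold higher with gefitinib (adjusted p = 0.000154) and stood first among genes with a RefSeq name. PTAFR, the receptor of platelet-activating factor, was at least 35.2-fold higher, WFIKKN2, an antagonist of growth and differentiation factors, at least 16.5-fold, and the chemokine CCL20 at least 13.9-fold. For GAL3ST1, the enzyme that makes sulfatide, and NSG2, a neuronal vesicle protein, the limits were 13.6-fold and 12.3-fold. In all, 432 of the raised genes had no DMSO array well above background.

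The largest fall was in LMNB1, which encodes lamin B1 of the nuclear envelope. It stood at 0.87 and 0.57 with DMSO and -4.01 and -4.10 with gefitinib, a log2 change of -4.77 ± 0.36 (SE, adjusted p = 9.37e-05), by 1 probe at chr5:126200382-126200441 (hg18). PTGER4, a receptor of prostaglandin E2, was at 1.31 and 0.85 with DMSO and -2.71 and -3.48 with gefitinib and changed by -4.18 ± 0.41 (SE, adjusted p = 0.000252). DKK1, a secreted inhibitor of Wnt signalling, was bright in DMSO and lay lower with gefitinib, at 5.91 and 5.87 with DMSO and 2.17 and 2.05 with gefitinib, a log2 change of -3.78 ± 0.32 (SE, adjusted p = 0.000147). FZD8, a Wnt receptor, changed by -3.73 ± 0.34 (SE, adjusted p = 0.000189). Both DKK1 and FZD8 were therefore among the 12 largest falls, which were ranked only among genes without overlap between groups. PPP1R10, a regulatory subunit of protein phosphatase 1 in the nucleus, fell, with a change of -3.83 (log2), TADA1, a subunit of the SAGA coactivator, with -3.57, and DGAT2, which makes triglycerides, with -3.59. C15orf39, the zinc finger gene ZNF671 and C8orf58 changed by -4.06, -3.66 and -3.61. The remaining genes of the 12 were FADD and DUSP6, described with their pathways.

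Other genes were not well above background on either gefitinib array. The 6 with the largest limits were the zinc finger genes ZNF689 and ZSWIM3, at least 10.9-fold and 9.42-fold lower, CCNJ, a cyclin, at least 9.34-fold lower, FUT4, a fucosyltransferase, at least 9.18-fold lower, KTI12, linked to tRNA modification, at least 8.63-fold lower, and the homeobox gene OTX1, at least 10.4-fold lower. The 2 probes of OTX1 disagreed, ranging from -4.52 to 0.57, so that its fall rests on 1 probe. In all, 714 lowered genes had no gefitinib array well above background.

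**Figure D2:**
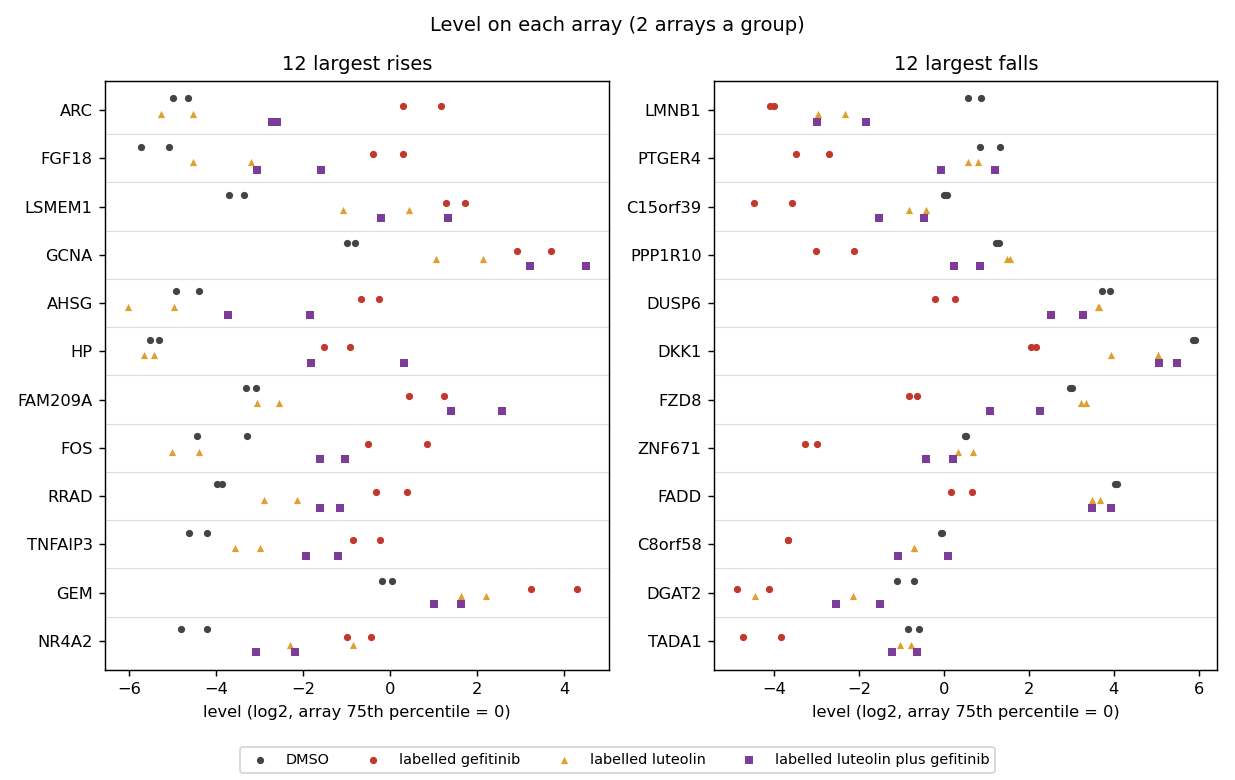
Level on each array (log2, 75th percentile at 0) of the 12 genes that rose most and the 12 that fell most with gefitinib, 2 arrays per group. A lack of overlap between gefitinib and DMSO points was a condition for the 24 genes. LMNB1 is low also on the arrays of the other drug groups.

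Few transcripts of the receptor family passed the threshold. EGFR itself was at -0.43 and -0.43 with DMSO and 0.13 and 0.19 with gefitinib, both gefitinib arrays above both DMSO arrays, yet the log2 change of 0.58 ± 0.22 (SE, adjusted p = 0.0493) was below 2-fold. GAK was at 0.66 and 0.44 with DMSO and 0.86 and 0.59 with gefitinib, a log2 change of 0.18 ± 0.17 (SE, adjusted p = 0.418) and the groups overlapped. ERBB2 and ERBB3 also stayed below the threshold, at a change of -0.23 and 0.56. Of the 17 measured genes of EGFR, its relatives, ligands and adaptors, 1 rose and 2 fell, with a median of -0.02. The ligand AREG (amphiregulin) fell, with a change of -1.31 ± 0.37 (SE, adjusted p = 0.0174), at 3.69 and 3.80 with DMSO and 2.39 and 2.49 with gefitinib. ERRFI1, the feedback inhibitor that binds the receptor kinase, rose by 1.03 ± 0.25 (SE, adjusted p = 0.0101). That rise is below the 1.04 that scaling added, and after quantile normalization ERRFI1 was at 0.44 and did not pass. The ligand EGF also fell, to a level not well above background, but was higher after normexp background correction.

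Of the 17 measured ERK feedback and output genes 0 rose and 4 fell (23.5%, where 14.3% of all genes fell), with a median of -0.48 against 0.22 over all genes. DUSP6, the phosphatase of ERK, showed one of the largest falls of all genes, at 3.90 and 3.72 with DMSO and 0.25 and -0.21 with gefitinib, a log2 change of -3.79 ± 0.26 (SE, adjusted p = 7.45e-05), by 1 probe at chr12:88266275-88266334 (hg18). SPRY1, SPRY4 and SPRED1, adaptors that damp signalling to RAF, fell, with a change of -2.09 ± 0.42 (SE, adjusted p = 0.00458), -1.51 ± 0.35 (SE, adjusted p = 0.0083) and -1.36 ± 0.22 (SE, adjusted p = 0.00214). No gefitinib array overlapped a DMSO array for these genes. The ERK-responsive factors ETV4 and ETV5 were at a change of -0.12 and -0.24, FOSL1 at a change of 0.04 and SPRY2 at a change of -0.32, all below the threshold. CCND1 (cyclin D1) was at 2.51 and 2.27 with DMSO and 3.20 and 3.28 with gefitinib, a log2 change of 0.85 ± 0.25 (SE, adjusted p = 0.022) and thus short of 2-fold, and MYC at -0.71 ± 0.28 (SE, adjusted p = 0.0575). On the arrays labelled luteolin, DUSP6 was at 3.66 and 3.62 and SPRY1 at 0.46 and -0.07, near the DMSO arrays, so that their falls do not hold under the file names.

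Immediate early genes are transcribed within minutes of a stimulus from factors already present in the cell. They held the highest median of the 23 lists of pathway genes, 1.85, with 11 of 18 measured members raised and 4 lowered. Beside ARC and FOS, JUN was at 3.20 and 3.1 with DMSO and 5.27 and 4.44 with gefitinib and JUNB at 1.77 and 1.54 with DMSO and 3.82 and 3.48 with gefitinib, log2 changes of 1.70 and 1.99. ATF3, a stress-induced repressor, changed by 3.14 ± 0.43 (SE, adjusted p = 0.00099), at -0.39 and -0.29 with DMSO and 3.34 and 2.28 with gefitinib. The Krüppel-like factors KLF6 and KLF2 rose by 3.78 and 2.95, NR4A1 and NR4A3 by 2.63 and 2.08. The 4 probes of KLF6 gave changes from 1.73 to 5.61. Against these, SRF, the factor that drives many immediate early genes, fell, with a change of -1.65 ± 0.17 (SE, adjusted p = 0.000305), IER2 with -1.33 ± 0.31 (SE, adjusted p = 0.00793), KLF4 with -1.01 and EGR2 to a level not well above background (higher after normexp). By the median of its probes SRF was at -0.71 and did not pass. EGR1 was at -2.74 and -4.87 with DMSO and -2.11 and -3.43 with gefitinib and the groups overlapped, with a change of 1.04 ± 0.64 (SE, adjusted p = 0.2). On the arrays labelled luteolin ARC and FOS were near DMSO, at -5.28 and -4.53 and -4.41 and -5.01.

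**Figure D3:**
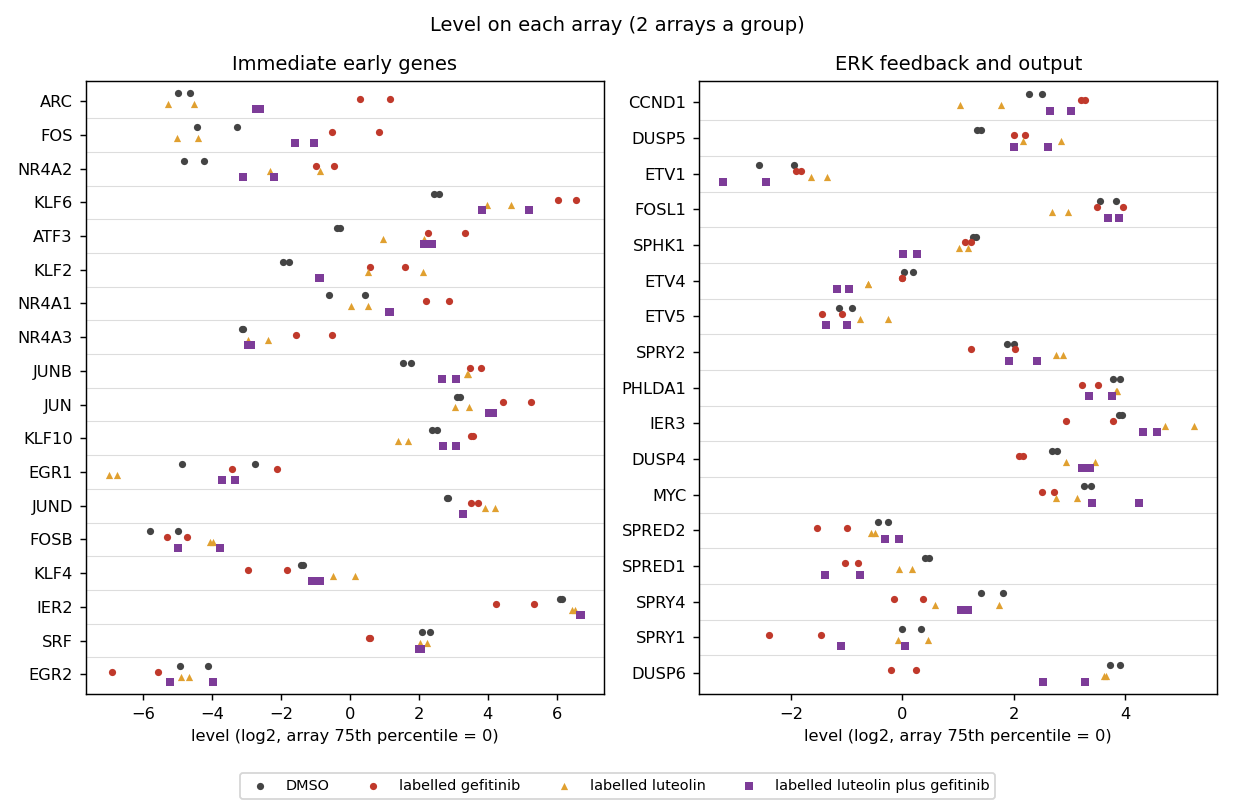
Level on each array (log2, 75th percentile at 0) of the 18 measured immediate early genes and the 17 measured ERK feedback and output genes, ordered by their change with gefitinib, 2 arrays per group. ARC, FOS, NR4A1 and NR4A3 are highest, and DUSP6, SPRY1 and SRF lowest, on the arrays labelled gefitinib.

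Most measured genes of inflammation rose. Of 19 measured cytokines, chemokines and NF-κB targets, 12 rose and 0 fell, with a median of 1.39. CXCL8 (interleukin 8), which attracts neutrophils, was at -2.26 and -3.01 with DMSO and 1.03 and 0.53 with gefitinib, a log2 change of 3.41 ± 0.39 (SE, adjusted p = 0.000474). Its relatives CXCL2 and CXCL3 rose by 2.79 and 2.84, with -1.31 and -1.84 with DMSO and 1.6 and 0.92 with gefitinib for the latter. NFKBIA, the inhibitor of NF-κB that NF-κB itself induces, rose by 1.89 ± 0.23 (SE, adjusted p = 0.000576), LIF, a cytokine of the interleukin 6 family, by 1.39 and ICAM1, an adhesion molecule of leukocytes, by 1.17. PTGS2, which makes prostaglandins, was not well above background with DMSO and was at least 3.12-fold higher. IL6, IL11, IL18, IL1B, CXCL1, CCL2 and CSF2 did not pass, with changes from -0.77 to 0.82. CD14, a marker of leukocytes that epithelial cells can also express, rose by 1.81 ± 0.48 (SE, adjusted p = 0.0136) from a low level (-4.76 and -5.03 with DMSO and -2.74 and -3.43 with gefitinib), while PTPRC, which defines leukocytes, was not well above background.

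Among growth factors and their receptors, 6 of 20 measured genes rose and 3 fell. FGF1 and its receptor FGFR1 rose by 1.28 and 1.12 beside FGF18. INHBA, a subunit of activin, rose by 1.61 ± 0.27 (SE, adjusted p = 0.00238), and FST, follistatin, which binds activin, by 1.14 ± 0.27 (SE, adjusted p = 0.00898). LEFTY1 was at least 7.4-fold higher, its DMSO arrays not being well above background. LEFTY2 and NODAL were not well above background on both arrays of any group. BMP4, a bone morphogenetic protein, went the other way, at least 5.52-fold lower (-2.44 and -2.73 with DMSO and -6.20 and -6.77 with gefitinib), and GREM1 and SMAD6, which restrain BMP signalling, fell as well, SMAD6 with -1.56 ± 0.31 (SE, adjusted p = 0.00424). After normexp GREM1 was higher and SMAD6, at -0.53, did not pass.

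Cell cycle genes divided between their phases. Genes of mitosis and G2/M had the lowest median of the 23 lists, -1.09, with 16 of 28 measured members lowered and 0 raised. CCNA2 (cyclin A2) was at 0.20 and 0.19 with DMSO and -2.84 and -2.43 with gefitinib, a log2 change of -2.83 ± 0.24 (SE, adjusted p = 0.000144). CCNB1 (cyclin B1) was at 3.79 and 3.46 with DMSO and 1.66 and 1.87 with gefitinib and changed by -1.86 ± 0.29 (SE, adjusted p = 0.00173). The mitotic kinases AURKA and TTK fell, with a change of -2.84 and -2.03, and PLK1 with -1.07. Motor and kinetochore genes followed, KIF11 with -2.0, KIF20A with -1.68, CENPA with -1.77 and CENPF with -1.65. BIRC5 (survivin) and FOXM1, a factor that drives mitotic genes, were higher with gefitinib but did not pass, at a change of 0.58 and 0.66.

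Genes of DNA replication moved in both directions, 5 of 34 up and 8 down, with a median of 0.13 that was near that of all genes. CDC45, part of the replicative helicase, rose by 1.29 ± 0.14 (SE, adjusted p = 0.000416), TYMS, which makes thymidylate, by 1.15 and POLA1, the primase-bound polymerase, by 1.038. The rise of POLA1 is just below the 1.041 that scaling added. The helicase subunits MCM2 to MCM7 lay between 0.12 and 0.79 and did not pass. CCNE2 (cyclin E2), E2F2 and FEN1, the flap endonuclease, fell, with a change of -2.91, -2.48 and -1.99, while E2F1 rose by 1.14. CCNE2 was at -0.87 after normexp and E2F2 at -0.39 by the median of its probes, and neither passed. Replication genes set the arrays labelled gefitinib apart from those labelled luteolin, where 29 of the 34 were at least 2-fold lower and 0 higher. Mitotic genes did so too, 19 of the 28 being at least 2-fold lower there and 1 higher. Against the arrays labelled luteolin plus gefitinib, 9 replication and 9 mitotic genes were higher with gefitinib, and 5 and 3 lower. Of all genes, 9.76% were higher and 17.2% lower in that comparison. RRM2, the small subunit of ribonucleotide reductase, was at 2.20 and 2.30 with DMSO and 2.37 and 2.40 with gefitinib but at -2.26 and -2.61 on the arrays labelled luteolin, a difference of 4.83 ± 0.24 (SE, adjusted p = 2.64e-05). UHRF1, which maintains DNA methylation, differed by 4.49 ± 0.24 (SE, adjusted p = 2.66e-05) and GINS2, of the replicative helicase, by 3.86 ± 0.19 (SE, adjusted p = 2.64e-05). Under the file names, the median change of the replication genes was -1.91 and that of the mitotic genes -2.16.

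Promoters of both sets are shown because replication genes lay near DMSO on the whole while most mitotic genes fell. Sequences are those of RefSeq (GRCh38.p14), with 250 bases before and 50 after each annotated start, and 379 of the 494 measured genes of the 25 lists had such a window. The capitals mark the core of the cell cycle homology region (TTTGAA or TTCGAA) in KIF11 and CENPA, the lowered mitotic genes with the largest falls among those that hold it, and an E2F element (TTTCCCGC, TTTGGCGC or TTTCGCGC) in TYMS and GINS2, the replication genes furthest above the arrays labelled luteolin among those that hold one. Only genes with a single window were taken. Each sequence has capitals for 1 element only, and CENPA also holds an E2F match (TTTCCCGC) that is left in small letters. Both strands were searched, and the 250 bases before the start are printed for KIF11 (chr10:92592880-92593129, plus strand), CENPA (chr2:26785806-26786055, plus strand), GINS2 (chr16:85688955-85689204, minus strand) and TYMS (chr18:657403-657652, plus strand).
KIF11: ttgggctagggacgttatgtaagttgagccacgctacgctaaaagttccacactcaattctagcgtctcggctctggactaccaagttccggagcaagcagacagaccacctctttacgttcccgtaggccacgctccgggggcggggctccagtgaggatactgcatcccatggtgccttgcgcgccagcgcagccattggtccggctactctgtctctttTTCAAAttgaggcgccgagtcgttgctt
CENPA: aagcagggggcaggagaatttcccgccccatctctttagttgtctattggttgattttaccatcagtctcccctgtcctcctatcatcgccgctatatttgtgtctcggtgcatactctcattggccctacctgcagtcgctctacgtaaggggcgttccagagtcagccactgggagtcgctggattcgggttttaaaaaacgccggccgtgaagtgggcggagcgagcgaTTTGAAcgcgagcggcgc
GINS2: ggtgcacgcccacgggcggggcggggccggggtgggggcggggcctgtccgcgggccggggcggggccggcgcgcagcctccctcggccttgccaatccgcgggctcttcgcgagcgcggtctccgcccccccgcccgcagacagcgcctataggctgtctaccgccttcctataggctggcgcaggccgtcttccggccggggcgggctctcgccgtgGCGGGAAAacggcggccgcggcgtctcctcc
TYMS: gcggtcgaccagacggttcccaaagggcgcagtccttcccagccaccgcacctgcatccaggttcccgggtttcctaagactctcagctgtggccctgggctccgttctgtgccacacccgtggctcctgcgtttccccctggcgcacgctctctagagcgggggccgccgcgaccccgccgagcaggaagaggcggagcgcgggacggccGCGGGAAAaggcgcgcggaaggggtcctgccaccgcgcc
The E2F letters were found in 18 of 28 replication genes with a window (64.3%), in 3 of 22 mitotic genes (13.6%) and in 3.3% of all 27305 genes. The homology core was found in 15 of the 22 mitotic genes (68.2%), in 2 of the 28 replication genes (7.14%) and in 19.5% of all genes. A CCAAT box was found in 20 of the 22 mitotic genes (90.9%) and 39.7% of all genes. Within the mitotic list, the core was in 9 of 14 genes that fell and in 6 of 8 that did not pass. A match is a description of letters and not of a bound site.

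**Figure D4:**
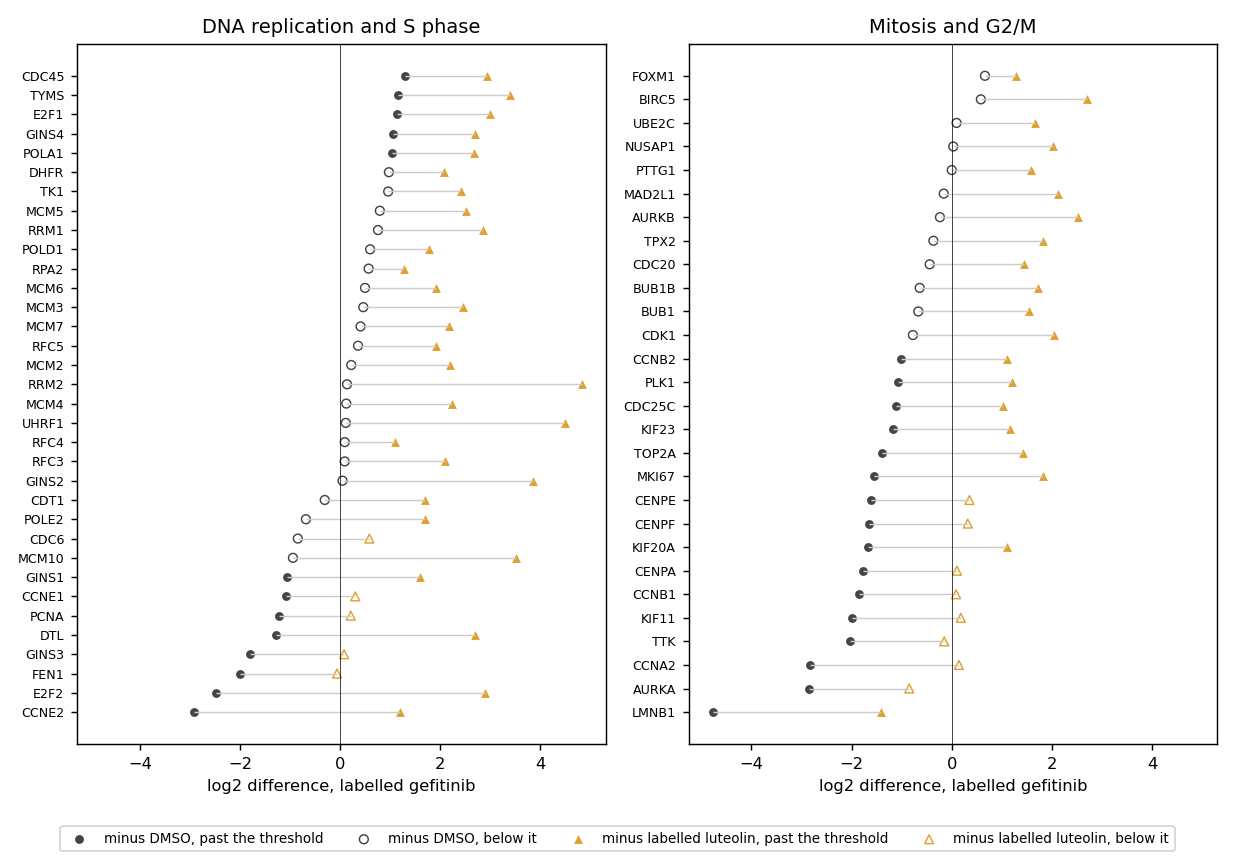
Log2 difference of the arrays labelled gefitinib from DMSO (circles) and from the arrays labelled luteolin (triangles) for 34 genes of DNA replication and 28 of mitosis, filled where the difference passed the threshold. Most replication genes lie near 0 against DMSO and well above 0 against luteolin, and 16 mitotic genes lie below -1 against DMSO.

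Among inhibitors of cyclin-dependent kinases and pocket proteins, 7 of 18 measured genes rose and 2 fell, with a median of 0.64. CDKN1A (p21) and CDKN1B (p27) changed by 1.37 ± 0.33 (SE, adjusted p = 0.00969) and 1.30 ± 0.24 (SE, adjusted p = 0.0031), CDKN1C (p57) by 1.88 ± 0.25 (SE, adjusted p = 0.000893). CDKN2A, at 3.53 and 3.74 with DMSO and 5.37 and 5.20 with gefitinib, and CDKN2B rose by 1.65 and 1.70. The stress-induced growth inhibitors GADD45A and GADD45B rose by 1.28 and 1.64. CDKN2C (p18) and the antiproliferative factor BTG1 fell, BTG1 being at 1.43 and 1.42 with DMSO and -0.85 and -1.53 with gefitinib. LEMD3, a protein of the inner nuclear membrane, and LBR, the lamin B receptor, fell beside LMNB1, with -3.54 ± 0.31 (SE, adjusted p = 0.000163) and -1.33, whereas LMNA was at a change of 0.01 and LMNB2 at a change of 0.54, neither past the threshold. They were 3 of the 10 lamina genes measured, with 0 raised.

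Of 21 measured caspases, receptors and adaptors of apoptosis, 3 rose (14.3%) and 5 fell (23.8%), where 15.6% of all genes rose and 14.3% fell, and their median was -0.54. FADD, the adaptor of death receptors, was at 4.03 and 4.08 with DMSO and 0.67 and 0.17 with gefitinib and changed by -3.64 ± 0.22 (SE, adjusted p = 5.56e-05), with 2 probes that ranged from -3.76 to -3.64. BAK1, which permeabilizes mitochondria, was at 1.54 and 1.67 with DMSO and -1.21 and -1.62 with gefitinib and changed by -3.03 ± 0.22 (SE, adjusted p = 8.73e-05). Neither gene overlapped between groups, and both were lower also than on the arrays labelled luteolin, with log2 differences of -3.17 and -2.92. APAF1, the scaffold of the apoptosome, TNFRSF1A, the receptor of TNF, and CASP10 fell, APAF1 with -1.6 and TNFRSF1A with -1.33. After normexp APAF1 was at -0.17 and CASP10 at -0.07, and neither passed. CASP8 rose by 1.31 ± 0.21 (SE, adjusted p = 0.0021), although its 3 probes ranged from -1.80 to 1.31, and the inhibitors BIRC2 and BIRC3 rose by 1.34 and 1.91.

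Within the BCL2 family, 5 of 16 measured genes rose and 2 fell. PMAIP1 (NOXA), HRK and BBC3 (PUMA), which antagonize the survival members, rose by 1.20, 1.56 and 1.17 (the median over the probes of BBC3 was -0.82), as did BAX by 1.02 and the survival gene BCL2 by 1.6 ± 0.28 (SE, adjusted p = 0.00272). The rise of BAX is below the 1.04 that scaling added. BCL2L11 (BIM), a gene that FOXO factors and ERK are known to control, fell, with a change of -1.82 ± 0.16 (SE, adjusted p = 0.000184). Its 5 probes gave changes from -3.06 to -0.01, and their median of -0.39 did not pass. MCL1 was at 4.03 and 3.92 with DMSO and 4.05 and 3.31 with gefitinib, an overlap of the groups, and BCL2L1 at a change of -0.79.

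FOXO targets and receptors of the PI3K pathway did not rise as a group. Of 15 measured, 1 rose and 6 fell, with a median of -0.40. IRS2, an adaptor of the insulin receptor, rose by 1.82 ± 0.36 (SE, adjusted p = 0.00413). IRS1 and INSR, the other adaptor and the receptor itself, fell, with a change of -1.57 ± 0.18 (SE, adjusted p = 0.000474) and -1.25, FOXO1 with -1.22, BCL6 with -1.42 and TXNIP, an arrestin-like protein, with -1.68. SESN1 was at least 3.44-fold lower. After normexp INSR was at -0.15 and SESN1 at -0.51, and neither passed. The direction turns with the reading of the labels, since 13 of the 15 were lower than on the arrays labelled luteolin and the median under the file names was 1.34.

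The stress response of ATF4 and CHOP, by which cells answer amino acid lack and misfolded protein, was mixed. Of 18 measured genes, 4 rose and 3 fell, with a median of 0.28. PPP1R15A (GADD34) rose by 2.33 ± 0.34 (SE, adjusted p = 0.00129), NUPR1 by 1.33, DDIT4 (REDD1) by 1.44 and ERN1 (IRE1) by 1.28. DDIT3 (CHOP) was at -0.68 and -0.32 with DMSO and -0.34 and -1.54 with gefitinib and TRIB3 at 3.39 and 3.60 with DMSO and 3.80 and 3.51 with gefitinib, which overlap between groups, and ASNS (asparagine synthetase) was at a change of 0.42. On the arrays labelled luteolin the same genes were higher, 14 of the 18 by at least 2-fold: TRIB3 differed by -2.95, DDIT3 with -3.30 and GDF15 with -2.74 (log2, gefitinib minus luteolin). In amino acid synthesis and transport, 1 of 21 genes rose (SLC3A2) and 0 fell, and of 19 tRNA synthetases 0 rose and 0 fell, the changes lying between -0.83 for QARS1 and 0.79 for YARS1. The rise of SLC3A2, 1.02, is below the 1.04 that scaling added.

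Part of the cholesterol synthesis genes rose. Of 25 genes, 7 rose and 1 fell, with a median of 0.81. MSMO1, a sterol oxidase, was at -2.55 and -2.17 with DMSO and -0.19 and -0.50 with gefitinib and rose by 2.01 ± 0.36 (SE, adjusted p = 0.00298). MVD, DHCR7 and CYP51A1, also enzymes of the pathway, rose by 1.52, 1.37 and 1.20, and the regulator SREBF2 by 1.30. Lysosome and autophagy genes had a median of 0.61, with 6 of 31 raised (19.4%, near the 15.6% of all genes) and 1 lowered. SQSTM1 (p62), CTSB (cathepsin B) and GAA rose by 1.31, 1.41 and 1.19, and WIPI1 fell, with a change of -1.21. TFEB, the regulator of these genes, was at a change of -0.36.

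Many glycolytic genes lay close to the threshold. Of 21 genes of glycolysis and the hypoxia response, 5 rose and 0 fell, with a median of 0.84. GAPDH, at 5.97 and 5.85 with DMSO and 7.08 and 6.79 with gefitinib, rose by 1.03, PKM by 1.09 and ENO2 by 1.06, and ADM (adrenomedullin) rose most, by 2.83 ± 0.24 (SE, adjusted p = 0.000137). The rise of GAPDH is below the 1.04 that scaling added. After quantile normalization the median was 0.14, and under the file names -0.54. In the heat shock and metallothionein list, 2 of 20 rose and 2 fell. HSPA6, an inducible HSP70, was at -3.22 and -3.78 with DMSO and -0.29 and -0.92 with gefitinib and rose by 2.89 ± 0.30 (SE, adjusted p = 0.000305), while DNAJB1 and BAG3, a cochaperone each, fell, with a change of -1.39 and -1.57. Few targets of AHR and NRF2 passed, 2 of 21 raised and 1 lowered. CYP1A1 was at a change of 0.01 and NQO1 at a change of 0.66, and GCLC, which makes glutathione, fell, with a change of -1.70 ± 0.29 (SE, adjusted p = 0.00256).

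Ribosome biogenesis genes held 5 of 24 that fell and 0 that rose. PPAN and BYSL, which mature the large and the small subunit, fell, with a change of -2.75 ± 0.16 (SE, adjusted p = 5.53e-05) and -1.92 ± 0.16 (SE, adjusted p = 0.000135), the RNA polymerase I subunits POLR1B and POLR1C with -1.62 and -1.66 and NOP16 with -1.48. NCL and NPM1, abundant nucleolar proteins, were at a change of 0.55 and 0.84. Among 25 genes of invasion, 6 rose and 1 fell. The proteases MMP3, MMP10 and MMP1 rose by 2.23 ± 0.41 (SE, adjusted p = 0.0034), 1.82 and 1.07. SERPINE2, an inhibitor of serine proteases, rose by 1.59, FN1 (fibronectin) by 1.57 and ITGA3 by 1.13, and ITGA6 fell, with a change of -1.03. Of 17 YAP and TEAD targets 2 rose, among them ANKRD1 by 1.32, and 2 fell. CCN2 fell, with a change of -1.63 ± 0.35 (SE, adjusted p = 0.00584) and AJUBA with -1.31 ± 0.17 (SE, adjusted p = 0.000738), while CCN1 at -0.79 ± 0.31 (SE, adjusted p = 0.0582) and AXL at a change of 0.57 did not pass.

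**Figure D5:**
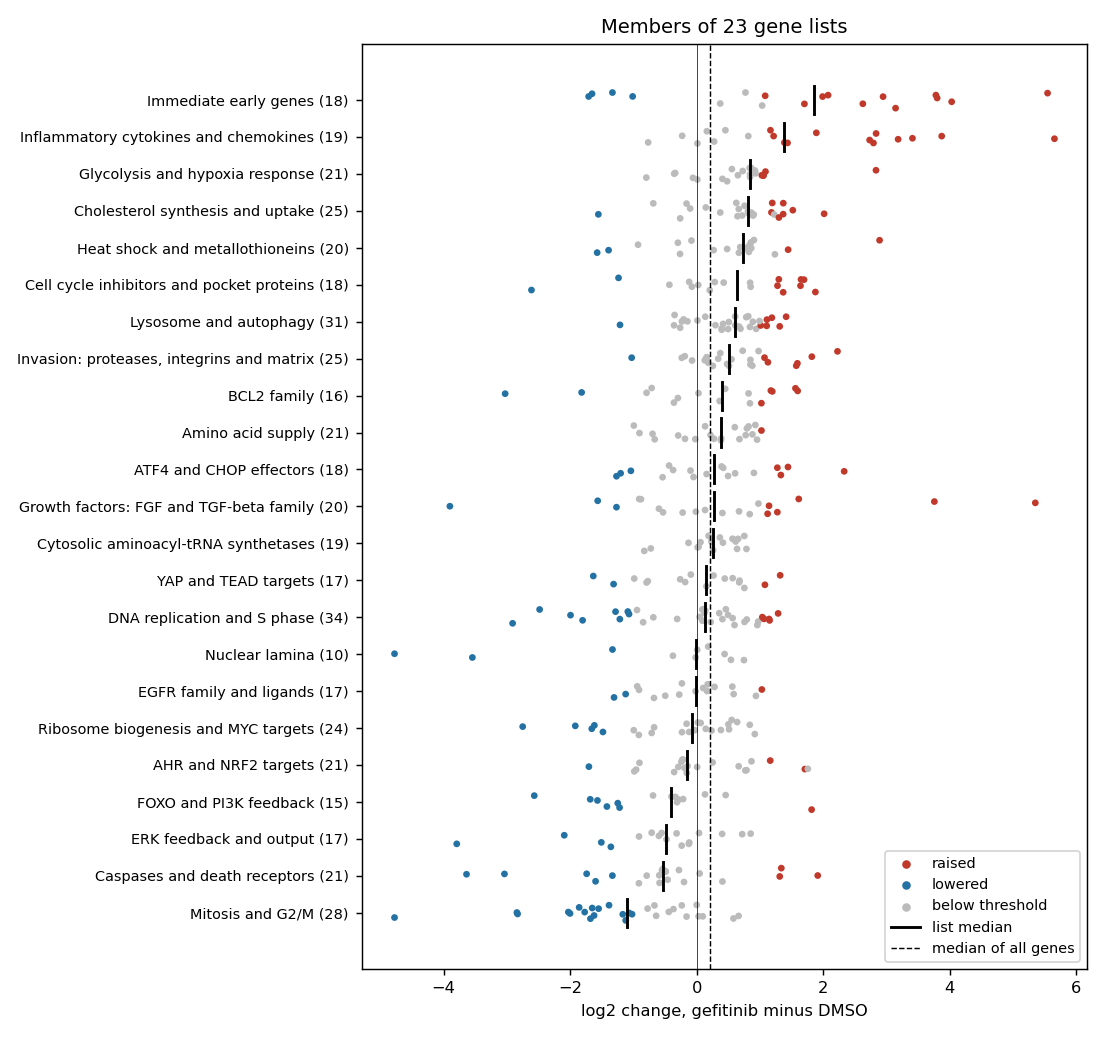
Log2 change with gefitinib of the measured members of 23 gene lists, one point per gene, ordered by the list median (black bar), with the number measured in parentheses. The broken line is the median of all genes, 0.22. Immediate early genes (1.85) and mitotic genes (-1.09) are the ends of the order.

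Set directly against the other drug groups, without the DMSO arrays, the arrays labelled gefitinib differed by 7214 genes (36.6%) from those labelled luteolin, 3640 higher (18.5%) and 3574 lower (18.1%). Beside ARC, the replication genes and FGF18, which were the highest among genes above background on every array compared, the lowest of such genes were PPARA, a nuclear receptor of fatty acids, at -4.55 ± 0.30 (SE, adjusted p = 4.41e-05), PPP1R10 at -4.10, FZD8 at -4.03, TP53INP1, a stress-induced autophagy factor, at -4.01 ± 0.22 (SE, adjusted p = 2.75e-05), and NNMT, which methylates nicotinamide, at -3.98 ± 0.32 (SE, adjusted p = 8.01e-05). NNMT was at 0.42 and 0.16 with DMSO and -1.96 and -2.02 with gefitinib and at 2.15 and 1.84 on the arrays labelled luteolin, that is above DMSO, so that its fall turns under the file names. The same holds for TP53INP1, at 0.71 and 0.83 there.

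From the arrays labelled luteolin plus gefitinib they differed by 5318 genes (27%), 1924 higher (9.76%) and 3394 lower (17.2%). Among genes above background on every array compared, ARC led again, at 3.40 ± 0.34 (SE, adjusted p = 0.000183), before KCTD4 at 3.17 ± 0.67 (SE, adjusted p = 0.00537). DTNA, a dystrophin-associated protein, RFTN1, a lipid raft protein, and LOXL4, which crosslinks collagen, were higher by 3.09, 2.95 and 2.68. For LOXL4 the difference lay with the other group, since it was at -0.73 and -0.36 with DMSO and -0.59 and -0.64 with gefitinib but at -3.14 and -3.46 with both drugs. The lowest of such genes were the zinc finger gene ZNF350, at -3.92 ± 0.18 (SE, adjusted p = 2.99e-05), BRF2, of RNA polymerase III (-3.89), RPUSD2, a pseudouridine synthase (-3.81), LEMD3 (-3.78) and ANGPTL4, an inhibitor of lipoprotein lipase (-3.71). BRF2 was at -1.46 and -1.5 with DMSO and -3.83 and -4.53 with gefitinib and RPUSD2 at 2.05 and 2.21 with DMSO and -0.88 and -1.62 with gefitinib, so that both fell against DMSO too, with -2.70 and -3.38. CCL20, PTAFR and WFIKKN2, which were well above background with gefitinib and not with DMSO, did not differ past the threshold from both drugs together, at -0.19 ± 0.56 (SE, adjusted p = 0.79), 0.31 ± 0.63 (SE, adjusted p = 0.698) and 0.01 ± 0.80 (SE, adjusted p = 0.991).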

How the data were processed

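RNA of 10 PC-3 samples was hybridized to Agilent arrays, 1 color, 2 arrays per group. Per the file headers, the deposited processed signal intensity was made by the authors with Feature Extraction 10.7.3.1, which subtracts background and trends within an array and does not normalize between arrays. Probe coordinates are hg18. The deposited value table held the same intensities. Groups were taken from the sample labels.

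Control spots were left out, spots of a probe averaged, and signals expressed as log2 relative to the 75th percentile of each array. Probes were kept where some group had them well above background on both of its arrays. A gene was represented by its probe of highest mean level, and symbols were updated by accession through RefSeq (23958 probes matched). All 10 arrays were fitted with limma 3.58.1 (R 4.3.3; lmFit and eBayes), 1 coefficient per group and no covariates. The p-values were adjusted (Benjamini-Hochberg) over the 28776 probes kept. Of 19718 genes, those at least 2-fold changed at an adjusted p under 0.05 were called. A gene not above background in a group is given as a lower limit of its fold. The code was tested on simulated data. Gene lists and members were chosen with earlier results of these data known. Named genes were the 12 largest rises and falls above background in both groups and without overlap between their arrays. Others were 6 with the largest limits in each direction, 5 per direction against each other drug group, list members and genes the study names. Some of these genes are not reported here.

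Alternatives were another background correction, normalization, filter, block, control, threshold and test, the treatments of the file names, and each array left out. Array number limits the precision.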

Additional observations from a re-analysis of the deposited data

How the results depend on the processing

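Over the alternatives, the counts of 3082 raised and 2814 lowered genes moved by over 1.5 times under these settings. With normexp background correction 2612 genes rose and 1333 fell, and 4674 and 2945 differed from the arrays labelled luteolin and luteolin plus gefitinib, against 7214 and 5318. With no minimum fold 6488 rose and 4366 fell (11907 and 9336 against the other drug groups), and with a 10-fold minimum 111 and 115 (230 and 111). A one-sample t-test, the kind the methods name but on log2 ratios to the mean of DMSO where the methods used 0 h, gave, with 2 values a gene, 1098 and 1172 without adjustment and 0 and 0 after Benjamini-Hochberg adjustment. The treatments of the file names gave 1423 and 1216. Under the other settings both counts stayed within 1.5 times. Quantile normalization, for example, gave 2057 raised and 3041 lowered, and no filter on dim probes 3866 and 2758. Leaving out each array in turn gave 2459 to 3336 raised, 2517 to 2808 lowered, 6432 to 7251 different from luteolin and 4973 to 5688 different from both drugs, the lone array left being assumed to vary like the other groups. A difference within 1 slide, chosen after the data were seen and with no test, passed 2-fold upwards for 3539 genes and downwards for 2941.

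The replicate numbers were shared across groups but did not pair the arrays, since correlations of same-numbered deviations ran from -0.10 to 0.29 (0.18 for DMSO and gefitinib). With the replicate block 3099 genes rose and 2818 fell, and 7227 and 5344 differed from the other drug groups.

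Single genes turned direction as follows, as log2 changes, and the cause was not tested. With normexp they were EGF at 0.29, EGR2 at 0.29 and GREM1 at 0.16. By the median over a gene's probes they were BBC3 at -0.82 and CASP8 at -1.70. Against the 0 h arrays they were ANKRD1 at -1.12, EGF at 0.14 and MMP10 at -0.30. Under the file names, genes that were higher under the labels, or higher than another drug group, were ADM (-0.37), AHSG (-0.84), ANKRD1 (-1.06), ARC (-0.0886), AXL (-1.30), BIRC5 (-2.11), CAV1 (-2.01), CDC45 (-1.65), CDH2 (-0.11), CSF2 (-2.13), CYP1A1 (-1.12), DTNA (-1.73), E2F1 (-1.85), EGR1 (-3.07), FGF1 (-1.49), FGFR1 (-0.20) and FOS (-0.84). Further such genes were GADD45B (-0.22), GAL3ST1 (-0.33), GAPDH (-0.36), GINS2 (-3.81), HP (-0.13), KRT7 (-1.86), LMNB2 (-1.39), MCM2 (-1.98), MCM7 (-1.77), PKM (-0.57), POLA1 (-1.63), RFTN1 (-2.12), RRM2 (-4.69), TYMS (-2.24) and UHRF1 (-4.37). Genes that were lower under the labels were then ANGPTL4 (0.0937), APAF1 (0.46), BCL2L11 (0.62), BCL6 (1.34), BMP4 (0.31), BRF2 (0.50), BTG1 (0.60), COL1A1 (0.40), DDIT3 (2.86), FOXO1 (1.10), FZD8 (0.30), GCLC (0.56), GDF15 (2.69), IER2 (0.36), INSR (0.53), IRS1 (0.12) and KLF4 (1.21). Also turned were LBR (0.0124), LEMD3 (0.0425), NNMT (1.70), OTX1 (0.14), PPARA (2.55), PPP1R10 (0.26), SESN1 (0.78), SPRY1 (0.0376), TNFRSF1A (0.0846), TP53INP1 (2.55), WIPI1 (2.57) and ZNF350 (0.35). 

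Other genes kept their direction and lost their call, and those whose log2 change shrank by over 1.5 times are named with it. They were 20 after normexp, among them APAF1 (-0.17), CASP10 (-0.0665), CCNE2 (-0.87), COL1A1 (-0.62), INSR (-0.15), KLF4 (-0.61), PPARA (-0.59), SESN1 (-0.51), SMAD6 (-0.53) and TP53INP1 (-0.82). They were 30 after quantile normalization, among them BBC3 (0.33), CD44 (0.56), CDC45 (0.76), CDKN2A (0.97), CTSB (0.93), DHCR7 (0.67), ERRFI1 (0.44), FST (0.46), GAA (0.55), GAPDH (0.14), ITGA3 (0.62), KLK3 (0.74), NUPR1 (0.79), PKM (0.34), SLC3A2 (0.48), SQSTM1 (0.65) and TYMS (0.36). They were 39 against the 0 h arrays, among them BCL6 (-0.92), BIRC2 (0.84), BIRC3 (1.00), CCNB1 (-0.80), CD14 (1.10), CDC45 (0.79), CDKN1A (0.83), CENPF (-0.94), CYP51A1 (0.55), FGF1 (0.40), FGFR1 (0.63), FN1 (0.77), FST (0.65), ITGA3 (0.70), KIF20A (-0.70), KRT7 (0.44), MMP1 (0.64), MMP3 (0.67), PLK1 (-0.57), POLA1 (0.64), PTGS2 (0.99), SERPINE2 (0.71), SPRY4 (-0.80), SQSTM1 (0.69), TP53INP1 (-0.95) and WIPI1 (-0.77). They were 8 by the median over probes, among them BAX (0.32), BCL2 (0.71), BCL2L11 (-0.39), E2F2 (-0.39), KRT14 (0.70) and SRF (-0.71). They were 9 with slide as a block, among them KLF4 (-0.63). Without gefitinib replicate 1 they were 24, among them CDKN1A (0.77), GREM1 (-0.82) and MMP1 (0.68). Without gefitinib replicate 2 they were 10, among them ANGPTL4 (-0.54), EGF (-0.59), EGR2 (-1.03), IER2 (-0.78) and KLF4 (-0.43). Without DMSO replicate 1 they were 17, among them ANKRD1 (0.79). Without DMSO replicate 2 they were 16. Under the file names 64 more genes did so, of which only some are named here. Higher under the labels were KCTD4 (0.23), PTAFR (0.12), WFIKKN2 (0.77), FGF18 (1.54), FAM209A (0.39), CXCL8 (0.84), JUN (0.11) and NR4A1 (0.38). Lower under the labels were PTGER4 (-0.40), FADD (-0.47), BAK1 (-0.10), DUSP6 (-0.17), AREG (-0.23), SPRY4 (-0.46) and SPRED1 (-0.38). The cause was not tested.

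Scaling to spike-in spots was not run, because most of those spots were not well above background. With 2 arrays a group the number of arrays limits the precision, and a dim probe has only a limit.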

Other observations

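Some gene families not listed above moved together in the arrays labelled gefitinib. They were noticed in these data and are given as counts, with no test of the family. Of 449 measured genes named ZNF, ZSCAN, ZKSCAN or ZFP and a number, which mostly encode zinc finger transcription factors, 194 fell and 17 rose against DMSO, with a median log2 change of -0.87, where 14.3% of all genes fell and 15.6% rose. They were at least 2-fold lower than with luteolin for 222 and lower than with both drugs for 266. Of the 376 well above background on all 4 arrays, 144 fell and 17 rose. ZNF689 is described above, and ZNF671 was at 0.50 and 0.53 with DMSO and -3.29 and -3.0 with gefitinib. Of 15 lysine demethylase genes named KDM, 7 fell and 0 rose, and of 29 Mediator genes named MED, 10 fell and 0 rose.

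Ribosomal protein genes went the other way. Of 98 genes named RPL or RPS and a number, 43 rose and 1 fell, with a median of 0.96, from a median level of 6.13 with DMSO. That median is below the 1.04 that scaling added to every difference from DMSO. Of the 98, 14 were at least 2-fold higher and 3 lower than on the arrays labelled luteolin, where 18.5% of all genes were higher and 18.1% lower. Against the arrays labelled luteolin plus gefitinib, 4 were higher and 1 lower, where 9.76% of all genes were higher and 17.2% lower. Of 12 late cornified envelope genes (LCE) 11 rose, of 31 olfactory receptor genes 18 rose and 1 fell, and of 17 keratin-associated protein genes 9 rose and 2 fell. Against the arrays labelled luteolin plus gefitinib, 1, 3 and 0 genes of these families were at least 2-fold higher and 0, 1 and 0 lower. The last 3 families are not known from prostate cells and had median levels of -1.74, -3.71 and -2.79 with DMSO. With genes divided into 4 equal bins by their DMSO level, 26.1% rose in the lowest bin, 12.2% and 9.27% in the middle bins and 14.9% in the highest. Probe brightness moves with these rises, and its part in them was not tested.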
